A study of Mus musculus with 8 samples.

Results

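Liver endothelial genes are described here by 10 genes of blood vessel and sinusoid walls: Icam2, Pecam1, Cdh5, Kdr, Flt1, Tek, Tie1, Eng, Stab2 and Lyve1. A probe set, the group of array probes that reports 1 transcript, was taken when it lay on both array types used and its single annotated gene symbol was 1 of these names. That gave 15 probe sets for the 10 genes, of 20393 probe sets for 12394 genes with a single symbol on both arrays. Cdh5, Eng and Lyve1 had 2 each and Flt1 had 3, and where 1 value per gene is given it comes from the probe set with the highest mean in the tumours.

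The tumour data were hepatocellular carcinomas (HCC) of HBs transgenic, p53-/- mice aged 12 to 15 months, HBs being the hepatitis B surface antigen. Of these, 3 tumours came from mice with the telomerase RNA (mTERC+) and 3 from mice without it (mTERC-), with 1 tumour on each array. The liver data were 2 arrays of non-tumour liver from p53-/- mice, taken 48 hours after intravenous adenovirus at 2e10 PFU. Each array was hybridised with a pool of 3 livers, after Ad TRF2DBDM (an altered form of the telomere protein TRF2) on 1 and Ad GFP on the other. All mice were C57BL/6J and all lacked p53, the controls included. The labels give the tissue as hepatocytes. Macrophage markers nonetheless had summed signals of at least 12448 on each tumour array and 3098 on each liver array. The 10 endothelial genes had sums of at least 1011.0 and 1549.7. The values were therefore read as those of mixed tissue RNA, and the cell make-up was not tested. In such RNA, fewer endothelial cells and less RNA per endothelial cell cannot be told apart.

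Endothelial cells line every vessel. They hold together through junction proteins such as VE-cadherin and PECAM-1, and grow and survive on signals from VEGF and angiopoietin receptors. Liver sinusoids are lined by a specialised, fenestrated endothelium without a continuous basement membrane, which clears hyaluronan and other waste from blood through scavenger receptors such as stabilin-2. In liver cancer the sinusoids are known to take on features of ordinary capillaries, and sinusoidal receptors such as stabilin-2 and LYVE-1 can be lost from tumour vessels.

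Upstream sequences of 6 of the 10 genes (Kdr, Flt1, Tek, Tie1, Eng and Stab2) were in the RefSeq promoter table (GRCm38.p6), and 3 are shown. Kdr and Flt1 are VEGF receptors, whose tumour levels lay on opposite sides of the livers by the probe set with the highest tumour level. The direction of Flt1 depended on the probe set. Tie1 is a receptor whose levels did not overlap between the tumour groups. Each run holds the 250 bases before the annotated start of transcription, on the minus strand, 5′ to 3′: Kdr at chr5:75978456-75978705, Flt1 at chr5:147726012-147726261 and Tie1 at chr4:118489850-118490099. Capitals mark GGAA or its reverse complement TTCC, the core letters bound by ETS factors, a family that includes regulators of endothelial genes.
Kdr: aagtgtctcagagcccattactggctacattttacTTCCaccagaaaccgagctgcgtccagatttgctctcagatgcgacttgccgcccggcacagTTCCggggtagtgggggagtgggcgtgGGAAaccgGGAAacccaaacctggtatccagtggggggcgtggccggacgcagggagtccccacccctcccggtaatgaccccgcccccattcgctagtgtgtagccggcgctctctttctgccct
Flt1: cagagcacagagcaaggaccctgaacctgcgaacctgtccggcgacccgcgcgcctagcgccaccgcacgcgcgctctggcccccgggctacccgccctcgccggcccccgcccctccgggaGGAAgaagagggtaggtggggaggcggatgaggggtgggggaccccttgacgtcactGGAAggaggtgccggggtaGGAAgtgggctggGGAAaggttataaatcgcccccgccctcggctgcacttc
Tie1: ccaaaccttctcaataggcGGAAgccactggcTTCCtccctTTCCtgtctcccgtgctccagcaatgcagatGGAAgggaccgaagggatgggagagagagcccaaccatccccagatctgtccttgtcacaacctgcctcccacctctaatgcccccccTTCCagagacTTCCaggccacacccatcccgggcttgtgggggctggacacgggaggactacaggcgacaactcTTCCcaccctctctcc
GGAA, on either strand, occurred 4 times in Kdr, 4 times in Flt1 and 7 times in Tie1. It is a common word, present in 93.4% of 32851 upstream windows of this length, with a median of 3 matches. These windows leave out 1 chromosome. The longer GGAAG, which contains GGAA, occurred 1, 3 and 6 times, against a median of 1, and 64.1% of these windows held it. TATAAA was found in Flt1 alone among the 6 genes, 31 bases before the start, and in 12.4% of these windows. A match describes these letters and shows no binding.

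The tumour and liver arrays were scaled to the same trimmed mean of 150, but over different probe sets. The tumour array has 45101 probe sets and the liver array 22690. Over the probe sets on both, the median signal was 96.1 to 115.3 on the tumour arrays, 46.1 on the GFP array and 52.5 on the TRF2DBDM array, so tumour and liver signals cannot be read against each other as deposited. The array of mTERC- tumour 2 stood apart: its Gapdh control gave 13.8 times as much signal at the 3' as at the 5' end, where the 5 remaining tumours gave 0.983 to 1.18. In 18S control signal, mTERC- tumours 2 and 3 (318.5 and 349) were far below the remaining 4 tumours, which had at least 11009.8. The GFP and TRF2DBDM liver arrays were lower still, at 31.5 and 34.5. Of the 10 genes, 5 were at or above the median signal of the array on all 6 tumour arrays (Cdh5, Kdr, Flt1, Eng and Stab2), and 8 were on both liver arrays.

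The first comparison set the endothelial genes of carcinomas without telomerase RNA against those of carcinomas that kept it. No member passed in limma. By the probe set with the highest level, the means of all 10 genes were lower in mTERC- tumours. That of Tek was lower by only 0.001 on the log2 scale. The median log2 difference of the 10 genes was -0.40, against 0.02 over all 19498 probe sets tested. Of the 14 member probe sets tested, the mean was lower for 11 and higher for 3, which were other probe sets of Cdh5, Flt1 and Eng. Over all probe sets, 48.5% had a lower mean in mTERC- tumours. The widest gap was that of Icam2, and Tie1 was the other gene with no overlap between the groups in the lower direction.

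A probe set was tested when its mean level, as log2 of the signal plus 32, reached the median of the array, and it passed where its p, adjusted by the Benjamini-Hochberg method, was below 0.05. Of the 15 member probe sets 14 were tested, and 0 passed, with adjusted p from 0.940 to 1.00 in limma. Over all probe sets 0.00513% passed, which is 1 probe set, of S100a8, a neutrophil gene. An unadjusted p under 0.05 was found for 2 of the 14 in limma, Icam2 and a second probe set of Cdh5, against 4.87% of all probe sets. The groups did not overlap for 3 of the 14, 2 lower and 1 higher in mTERC- tumours, against 4.5% lower, 5.69% higher and 10.2% in either direction of all probe sets. Without mTERC+ tumour 2 this count was 6 of 14, against 19.4% of all, and without mTERC+ tumour 3 it was 6 of 14, against 21.1%. It was 3 of 14 without mTERC+ tumour 1, against 18.4%, and without mTERC- tumour 2, against 19.8%. Without mTERC- tumour 1 it was 4 of 14, against 22.9%, and without mTERC- tumour 3 it was 4 of 14, against 21.1%.

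**Figure D1:**
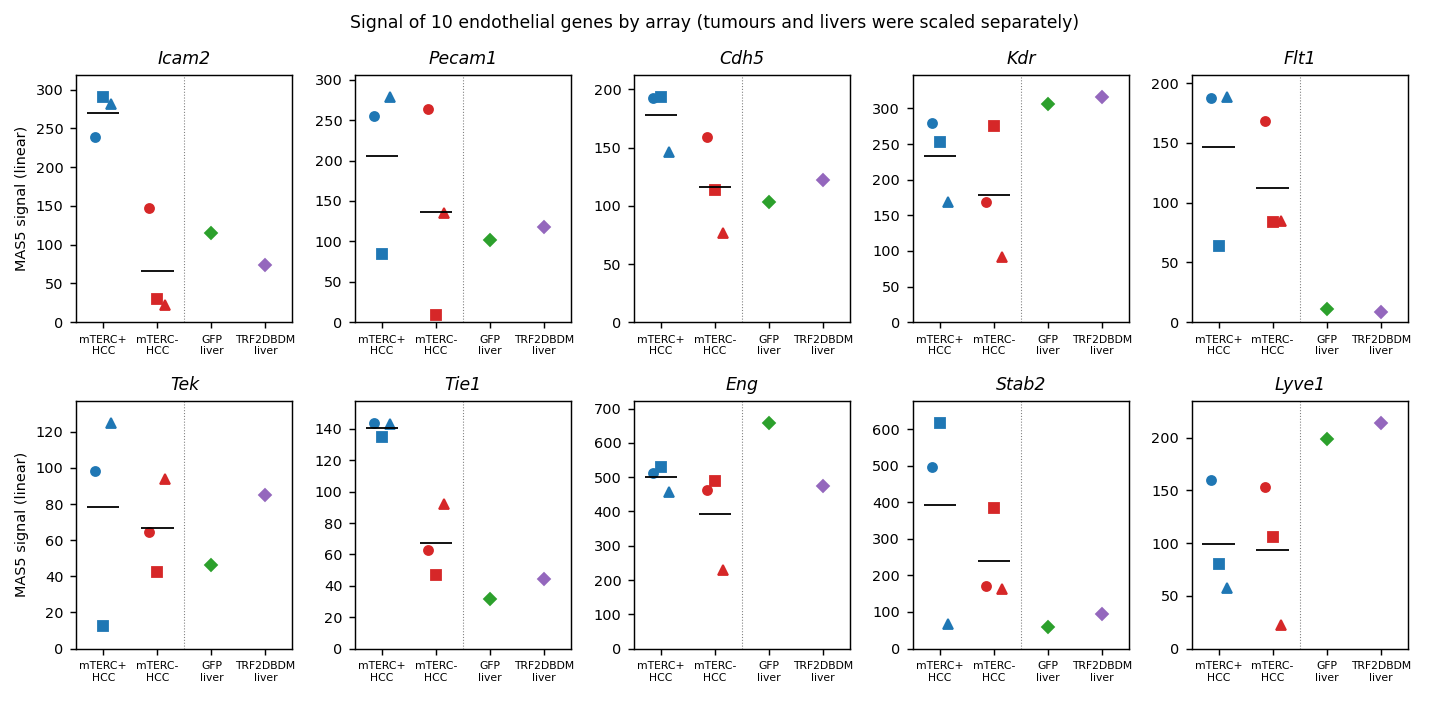
Each panel plots the MAS5 signal of 1 gene on a linear axis from 0 for the 3 mTERC+ and 3 mTERC- tumours (circle, square and triangle are tumours 1, 2 and 3) and the 2 virus-infected livers, with a bar at the mean of each tumour group. Icam2 and Tie1 are the panels where every mTERC+ tumour lies above every mTERC- tumour.

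Among the adhesion and junction genes, Icam2 encodes a ligand of leukocyte integrins that sits on endothelium, platelets and lymphocytes. Its signal was 239, 290.5 and 281 in mTERC+ tumours 1, 2 and 3 and 148, 30.0 and 22.1 in mTERC- tumours 1, 2 and 3. The mTERC+ tumours lay close together, and the mTERC- group split into 1 tumour at an intermediate level and 2 at 30.0 and below. The log2 difference was -1.83 (SE 0.48, 95% interval -2.85 to -0.82), which is 3.57-fold higher in mTERC+, with an unadjusted p of 0.00148 and an adjusted p of 0.940 in limma. The 2 low tumours were those with the low 18S signal. With a block for that control, which leaves mTERC- tumour 1 against the mTERC+ group, the log2 difference was -0.75, and without mTERC- tumour 2 it was -1.61. With 1 in place of 32 added before the log it was -2.51.

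Pecam1, the junction protein also known as CD31 and carried by platelets and leukocytes too, had signals of 256, 83.9 and 279 in the mTERC+ tumours and 264, 9.30 and 135 in the mTERC- tumours. Each group held 1 low tumour, and the groups overlapped. The log2 difference was -0.78 (SE 0.62, limma adjusted p = 0.941), and it was 0.031 without mTERC- tumour 2, the array with the high Gapdh ratio.

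Cdh5 encodes VE-cadherin, the adhesion molecule of endothelial junctions, and its 2 probe sets went opposite ways. The probe set with the higher level, 1433956_at, had signals of 193, 193 and 146 in mTERC+ and 159, 113 and 77 in mTERC- tumours, with a log2 difference of -0.53 (SE 0.41, limma adjusted p = 0.940). The other, 1422047_at, had signals of 5.90, 6.80 and 66.7 in mTERC+ and 82.8, 163 and 124 in mTERC- tumours. Its groups did not overlap, with a log2 difference of 1.53 (SE 0.58, unadjusted p = 0.0182 and adjusted p = 0.940 in limma). With 2 signals this low the size depended on the constant added before the log, and was 2.96 with 1 and 1.09 with 64. The tumours that were highest by the first were lowest by the second, so the arrays give no single direction for Cdh5.

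Of the VEGF receptors, Kdr encodes VEGFR2, the main signalling receptor of endothelial cells. Its signal was 280, 254 and 168 in mTERC+ and 169, 276 and 92.2 in mTERC- tumours. The groups overlapped, mTERC- tumour 3 was the lowest, and the log2 difference was -0.41 (SE 0.42, limma adjusted p = 0.952). It was -0.072 without that tumour and -0.73 without mTERC- tumour 2.

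Flt1 encodes VEGFR1, which binds VEGF tightly, signals weakly and is also made as a soluble trap. Its highest probe set, 1451756_at, had signals of 188, 63.8 and 188 in mTERC+ and 168, 84.0 and 84.7 in mTERC- tumours, with a log2 difference of -0.26 (95% interval -1.25 to 0.73). The second, 1454037_a_at, had 19.2, 111 and 6.90 against 53.4, 82.0 and 115, with a difference of 0.77 (95% interval -0.54 to 2.08). Here mTERC+ tumour 2, the lowest of the 6 by the first probe set, was the second highest. The third, 1419300_at, was below the level filter, at 5.50 to 35.6 in 5 tumours and 123 in mTERC+ tumour 3. A further Flt1 probe set found on the tumour array alone, 1440926_at, had 84.2, 75.2 and 14.4 in mTERC+ against 4.40, 16.6 and 6.40 in mTERC- tumours, also below the filter.

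The TIE receptors bind or modulate angiopoietins, which keep vessels quiescent or open them to growth. Tie1, the partner without a well-defined ligand of its own, had signals of 144, 135 and 143 in mTERC+ tumours and 62.9, 46.7 and 92.2 in mTERC- tumours. The mTERC+ values spanned less than 10 signal units, all above the highest mTERC- tumour. The log2 difference was -0.82 (SE 0.44, 95% interval -1.75 to 0.10), or 1.77-fold (limma adjusted p = 0.940). Over each tumour left out in turn it lay between -0.998 and -0.67.

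Tek encodes TIE2, the angiopoietin receptor itself. Its signal was 98.3, 12.3 and 125 in mTERC+ and 64.6, 42.2 and 93.9 in mTERC- tumours. The group means were nearly equal on the log2 scale, at a difference of -0.001, with a 95% interval from -1.24 to 1.23 that leaves more than a doubling or halving possible. Tek was the member with its lowest value in mTERC+ tumour 2, together with Flt1. The gap between the groups that Tie1 showed was thus not seen in Tek, and the difference between these differences was not tested.

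Eng encodes endoglin, a co-receptor through which BMP9 signals in endothelium. Its probe set 1417271_a_at had signals of 513, 531 and 456 in mTERC+ and 462, 489.6 and 228 in mTERC- tumours. It was even across 5 tumours and lower in mTERC- tumour 3, with a log2 difference of -0.39 (SE 0.37, limma adjusted p = 0.951) that was -0.065 without that tumour. The second probe set, 1432176_a_at, had 144, 141 and 174 against 201, 240 and 68.5, a log2 difference of 0.01. It too was lowest in mTERC- tumour 3.

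Stab2 encodes the hyaluronan scavenger receptor of sinusoidal endothelium. Its signal was 496, 616 and 68.5 in mTERC+ and 172, 384 and 163 in mTERC- tumours. The highest and the lowest of the 6 tumours were thus both mTERC+, a range of 6.45-fold on the scale of the signal plus 32. The log2 difference was -0.35 (SE 0.58, limma adjusted p = 0.970), and 0.15 without mTERC+ tumour 2.

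Lyve1 encodes a hyaluronan receptor of lymphatic and sinusoidal endothelium that some macrophages also carry. The probe set 1453128_at had signals of 160, 80.7 and 57.7 in mTERC+ and 154, 106 and 22.7 in mTERC- tumours, with a log2 difference of -0.16 (95% interval -1.31 to 0.99). The other, 1429379_at, had 97.7, 154 and 8.0 against 119, 17.6 and 13.5, with a difference of -0.50 (95% interval -1.98 to 0.98). By both probe sets mTERC+ tumour 3 was the lowest of its group and mTERC- tumour 3 the lowest of its own.

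**Figure D2:**
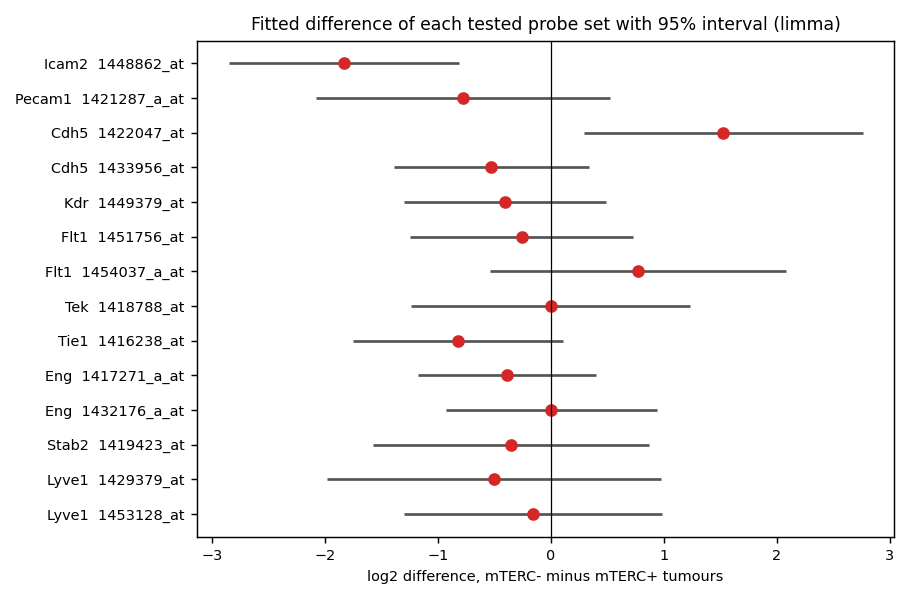
Points are the fitted log2 differences, mTERC- minus mTERC+ tumours, of the 14 tested member probe sets, and lines are 95% intervals from limma before any adjustment for multiple tests. The intervals of Icam2 (-2.85 to -0.82) and of the Cdh5 probe set 1422047_at (0.30 to 2.76) lie on opposite sides of 0, and the other 12 cross it.

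Across the 6 tumours the members varied about as widely as other probe sets. The highest tumour was 2.07 to 7.52 times the lowest on the scale of the signal plus 32, with a median of 2.97, against 2.74 for the 12090 tested probe sets within the same range of levels. Cdh5 was the member with the narrowest range and Pecam1 the one with the widest. The lowest tumour was mTERC- tumour 3 for 5 genes (Icam2, Cdh5, Kdr, Eng and Lyve1), mTERC- tumour 2 for 2, mTERC+ tumour 2 for 2 and mTERC+ tumour 3 for 1. Of all tested probe sets 13.7% were lowest in mTERC- tumour 3. The shares were 22.1% for mTERC- tumour 2, 14.5% for mTERC+ tumour 2 and 17.3% for mTERC+ tumour 3. The highest tumour was mTERC+ tumour 1 for 3 genes, tumour 2 for 4 and tumour 3 for 3, against 14.0%, 14.1% and 15.7% of all tested probe sets. Over all of these the tumour most often highest was mTERC- tumour 2, at 27.3%, the array with the Gapdh ratio of 13.8. It was highest for 0 of the 10 genes by the probe set with the highest level. By their other probe sets, Cdh5 (1422047_at) and Eng (1432176_a_at) were highest in it.

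The mean level of the 10 genes, each set against its own mean over the 6 tumours, was 0.56, 0.12 and 0.16 in mTERC+ tumours and 0.12, -0.38 and -0.57 in mTERC- tumours on the log2 scale. The mTERC- tumour 1 was thus level with mTERC+ tumours 2 and 3. Without mTERC- tumour 3 the median log2 difference of the members was -0.18, with 9 of 10 genes lower, and without mTERC- tumour 2 it was -0.55, with 8 of 10 lower. With the block for the 18S control it was -0.12, with 7 of 10 lower, against 48.6% of all tested probe sets. Under that block the second probe sets of Cdh5, Flt1 and Eng were above 0, at 1.13, 0.38 and 0.33.

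Other lists of vessel genes and of other cells were set beside the members. None of the 120 tested genes on the 14 lists passed in limma (0 genes), against 0.00513% of all probe sets. An unadjusted p under 0.05 in limma was found for 11, of which 5 were macrophage and Kupffer cell markers, against 4.87% of all probe sets. Among 19 tested pan-endothelial and junction genes the mTERC- mean was the lower for 16 (median log2 difference -0.49). S1pr1, a receptor for the blood lipid sphingosine 1-phosphate, had signals of 251, 251 and 175 in mTERC+ and 131, 9.80 and 141 in mTERC- tumours (log2 difference -1.27, SE 0.52, limma adjusted p = 0.940). Procr, the endothelial protein C receptor, had 180, 166 and 112 against 104, 32.6 and 14.2. As with Icam2, no mTERC- tumour reached the lowest mTERC+ tumour for either gene. Adgrl4, an orphan receptor of endothelium, had 182, 154 and 187 against 22.5, 148 and 73.7.

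Among 13 tested sinusoidal genes it was the lower for 10 (median -0.33). Stab1, the sister of Stab2, had signals of 377, 488 and 237 in mTERC+ and 275, 132 and 206 in mTERC- tumours, and Clec1b, a C-type lectin of platelets and sinusoids, had 515, 829 and 235 against 232, 300.4 and 173. Neither group pair was free of overlap. Both were lowest among mTERC+ tumours in tumour 3, whereas Gpr182, a receptor of sinusoidal endothelium, was highest there, at 189, 139 and 417 against 114, 219.5 and 101 in mTERC- tumours. The sinusoidal list as a whole stood at 0.24, 0.75 and -0.59 in mTERC+ tumours 1, 2 and 3. The macrophage list stood at 0.66, 1.75 and -1.10 in the same tumours. Some genes of the sinusoidal list, such as Fcer1g, are shared with macrophages, and the part of macrophages in these values was not tested.

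Partner genes of the receptors did not follow 1 direction. Among 7 tested VEGF ligands and other VEGF receptors the mTERC- mean was above the mTERC+ mean for 4 and below it for 3 (median log2 difference 0.34). Flt4, the VEGF-C receptor of lymphatic vessels, had signals of 545, 482 and 333 in mTERC+ and 549, 567 and 620 in mTERC- tumours, so that every mTERC- tumour was above every mTERC+ tumour (log2 difference 0.36, SE 0.35, limma adjusted p = 0.951). Of 5 tested angiopoietin and TIE partner genes 4 were lower, with a median of -0.20, and Angpt2, a TIE2 ligand of remodelling vessels, had 263, 48.1 and 135 against 19.3, 53.1 and 102. Of 12 genes of endoglin and BMP9 signalling 7 were lower, with a median of -0.08. Acvrl1, the ALK1 receptor that works with endoglin, had 169, 90.9 and 110 against 37.0, 106 and 59.5.

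Among 4 tested genes of the hyaluronan list the mTERC- mean was the higher for 3 (median 0.10). These were Hmmr, Cd44 and Hyal2, with log2 differences of 0.39, 0.13 and 0.07. The 1 lower gene, Ptger4 (log2 difference -0.44), encodes a prostaglandin receptor and is not a hyaluronan gene. Cd44, a hyaluronan receptor of many cell types, had signals of 522, 465 and 186 in mTERC+ and 382, 389 and 418 in mTERC- tumours. Of 8 Notch and ephrin genes 5 were lower, with a median of -0.08. Ephb4, the ephrin receptor of veins, had 228, 129 and 286 against 34.6, 77.9 and 114 with no overlap (log2 difference -1.21, SE 0.46, limma adjusted p = 0.940). The ligand and partner lists thus lay on both sides of 0, where the medians of the members and of the 2 wider endothelial lists were below it.

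Cells other than endothelium also express some members, and their markers moved between the tumours. Of 13 tested macrophage and Kupffer cell markers 12 had a lower mean in mTERC- tumours, with a median log2 difference of -1.05. Their summed signal was 12448 to 67484 in mTERC+ and 16814 to 22744 in mTERC- tumours. It was highest in mTERC+ tumour 2, which held the highest of the 6 values for 4 members (Icam2, Cdh5, Eng and Stab2) and the lowest for 2 (Flt1 and Tek). For pan-leukocyte genes 5 of 7 were lower (median -0.24, sums of 1971 to 7004 and 2385 to 3851), and for platelet genes 4 of 4 (median -0.17, sums of 564 to 1309 and 531 to 606). Stellate and pericyte genes had 6 of 9 lower (median -0.57, sums of 1785 to 5912 and 1488 to 3483), and lymphatic genes 1 of 5 (median 0.05, sums of 903 to 1057 and 948 to 1198). Hepatocyte markers had 7 of 8 lower (median -0.10), with sums of 138320 to 164802 and 107575 to 162733. No defining marker was listed at 0 on any array, but the lowest signals were 2.6 for macrophage, 3.8 for platelet and 5.6 for stellate and pericyte genes. A signal above 0 does not show that a cell type was present. The part of these cells in the members' values was not tested.

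**Figure D3:**
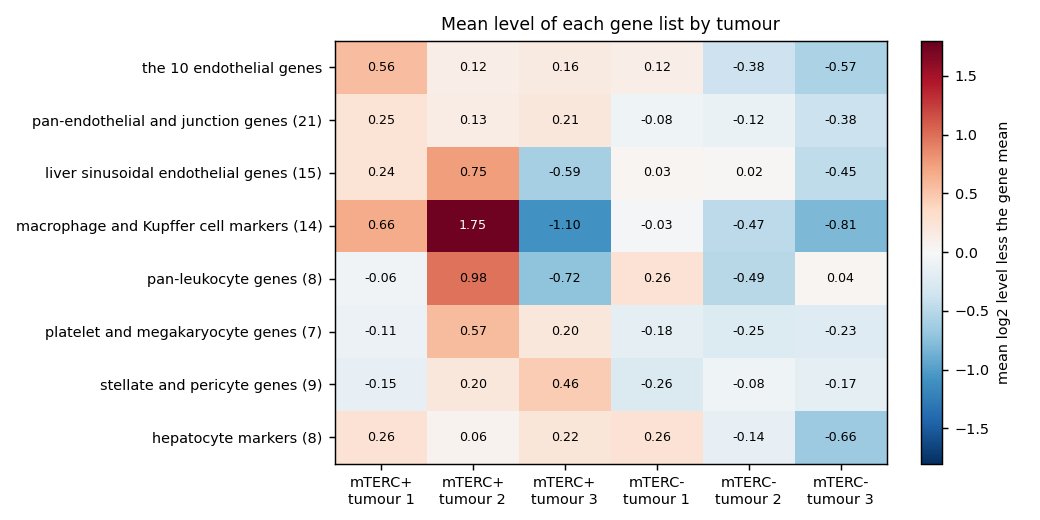
Each cell gives the mean over a gene list of the log2 level less the gene's own mean over the 6 tumours (rows are lists with the number of genes, columns are tumours). The 10 endothelial genes run from 0.56 in mTERC+ tumour 1 to -0.57 in mTERC- tumour 3, while the macrophage list runs from 1.75 in mTERC+ tumour 2 to -1.10 in mTERC+ tumour 3.

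The second comparison asked how p53-/- liver given TRF2DBDM differed from liver given GFP, with 1 array of pooled RNA each, so no test was made and the values describe these 2 pools. Most endothelial genes were close on the 2 arrays. A probe set was compared when its signal reached the array's median on at least 1 of them, which 11 of the 15 did. Of those, 9 were higher and 2 lower in the TRF2DBDM pool. Among the 9, Flt1 1419300_at reached the median on the TRF2DBDM array alone (54.7, against 34.8 in GFP), so the filter fixed its direction. Over all probe sets 51.1% were higher. The median log2 ratio of the 10 genes was 0.13, against 0.01 over all probe sets compared, and it was 0.02 with each array centred on its own median. With that centring Kdr (-0.07) and Lyve1 by 1453128_at (-0.02) were below 0.

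A ratio of at least 2 was found for 1 of the 11, a Lyve1 probe set, where 4.11% of all probe sets compared reached it upwards, 3.18% downwards and 7.29% in either direction. This was 1429379_at, with a signal of 139 in the TRF2DBDM and 52.2 in the GFP pool, or 2.04-fold on the scale of the signal plus 32. The other Lyve1 probe set was nearly level, at 214 and 198. Stab2 had a signal of 94.6 against 60.0, Tek 85.2 against 46.4 and Pecam1 118 against 101. The lower genes were Icam2, at 73.8 against 115, and Eng by 1417271_a_at, at 473 against 657. The second Eng probe set went the other way, at 202 against 103, so Eng too had no single direction. Kdr was level at 316 and 306, and Cdh5 had 122 against 104 by 1433956_at. Tie1, at 44.3 and 31.3, and Flt1, at 8.4 and 11 by 1451756_at, were below the median of both arrays.

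The other sinusoidal genes were higher as a list in the TRF2DBDM pool. All 11 compared were higher, with a median log2 ratio of 0.69. Clec4g, a lectin of sinusoidal endothelium, had a signal of 1183 in the TRF2DBDM and 481 in the GFP pool, the only one of the 11 at least 2-fold higher, where 4.11% of all probe sets were. Ehd3, a membrane-trafficking gene of liver endothelium, had 291 against 139, and Fcer1g, a receptor chain shared with macrophages, had 426 against 206. Of 15 pan-endothelial genes 11 were higher, with a median of 0.15, among them Ramp2, a co-receptor of the vessel hormone adrenomedullin, at 314 against 172. Thbd, thrombomodulin, was lower at 78.0 against 128. Of 5 VEGF genes compared 2 were higher (median -0.06), with Nrp1, a co-receptor, at 184 against 109 and Vegfb, a ligand of VEGFR1, at 178 against 287.

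Of the 9 genes of endoglin and BMP9 signalling compared, the TRF2DBDM signal was above the GFP signal for 3 and below it for 6 (median log2 ratio -0.22). The largest ratios were those of Id1, at 577 against 1067, Id2, at 427 against 916, both inhibitors of DNA binding by other factors, and Gdf2, the BMP9 gene, at 228 against 113. Macrophage markers had a median of 1.00, with 7 of 10 higher (sums of 3098 in GFP and 3185 in TRF2DBDM), and hepatocyte markers a median of 0.63, with 8 of 8 higher (sums of 31149.9 and 46188). Platelet genes had 2 of 3 higher (median 0.12), pan-leukocyte genes 5 of 6 (median 0.38) and stellate genes 3 of 4 (median 0.40). Their part in the values of the endothelial genes was not tested.

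The tumours and the virus-infected livers were then set side by side. The 2 array types were normalized separately, tissue, transgene and virus differ along with array type, no age is given for the livers, and none of these can be told apart, so no test was made. Levels are log2 of the signal plus 32 less each array's median over the probe sets on both array types. On this scale the members split. By the probe set with the highest tumour level, Kdr, Lyve1, Eng and Cdh5 were lower in all 6 tumours than in both livers. Flt1, by its own, was higher in all 6, though that probe set was chosen for its tumour level. The second probe sets of Lyve1, Eng and Cdh5 overlapped the livers. By each of these 4 tumours were below both livers, and by that of Cdh5 the other 2 were above both.

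Of the 10 member probe sets at or above the median level, 4 were lower in every tumour than in both livers and 1 was higher, where 14.5% and 17.7% of all probe sets were. A difference of at least 2-fold was found for 3 lower (Kdr, Eng and Lyve1) and 1 higher (Flt1, though not with 64 added before the log), against 9.66% and 12.9% of all. The tumour mean was above the liver mean for 3 of the 10 genes (Flt1, Tie1 and Stab2), against 52.4% of all probe sets kept. The median log2 difference of the 10 genes, tumours minus livers, was -0.46, against 0.05 over all probe sets kept. With the signals as deposited it was 0.25, where the median of all probe sets kept was itself 0.76.

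Lyve1 (1453128_at) had centred levels of -1.26 to 0.57 in the tumours, 1.56 in GFP and 1.54 in TRF2DBDM liver, a log2 difference of -1.72. Kdr had -0.08 to 1.26 against 2.11 and 2.04, a difference of -1.31. Both stayed below the livers in all 6 tumours in the deposited signals, with differences of -1.01 and -0.59 there, and that of Lyve1 was -2.36 with 1 added before the log. Eng (1417271_a_at) had 0.99 to 2.07 against 3.14 and 2.58, a difference of -1.06, but as deposited only 3 tumours were below both livers. For Cdh5 (1433956_at) the highest tumour, at 0.79, only just missed the lower liver, also 0.79. Its difference was -0.45, and it turned to 0.26 with the signals as deposited.

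Flt1 by 1451756_at had centred levels of -0.50 to 0.78 in the tumours against -0.86 and -1.06 in the livers. Because its liver signals were below the array median and below the 32 added before the log, the size of the log2 difference depended on that constant: it was 1.16 with 32, 2.46 with 1 and 0.79 with 64. Its deposited signals of 63.8 to 188 were also all above those of the livers, 8.4 and 11. The same did not hold for its other probe sets: by 1419300_at 5 of 6 tumours were below both livers, and by 1454037_a_at 2 were above both and 2 below both. The VEGF receptors Kdr and Flt1 were thus on opposite sides of the livers by the probe sets with the highest level, and the direction of Flt1 depended on the probe set.

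Stab2 was not lower in the tumours. Its centred level was 0.57 to 2.26 in 5 tumours and -0.35 in mTERC+ tumour 3, against 0.24 and 0.58 in the livers, so that 4 tumours were above both livers and 1 below both (log2 difference 0.70). Stab2 and Lyve1, both receptors for hyaluronan, thus lay on opposite sides of the livers in their means. Tie1 overlapped, with all 3 mTERC+ tumours and mTERC- tumour 3 above both livers (difference 0.19). Icam2 and Pecam1 overlapped as well, with differences of -0.36 and -0.48. Tek, which was below the level filter here, had a difference of -0.70. With the signals as deposited these 3 differences were above 0, at 0.35, 0.23 and 0.012.

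**Figure D4:**
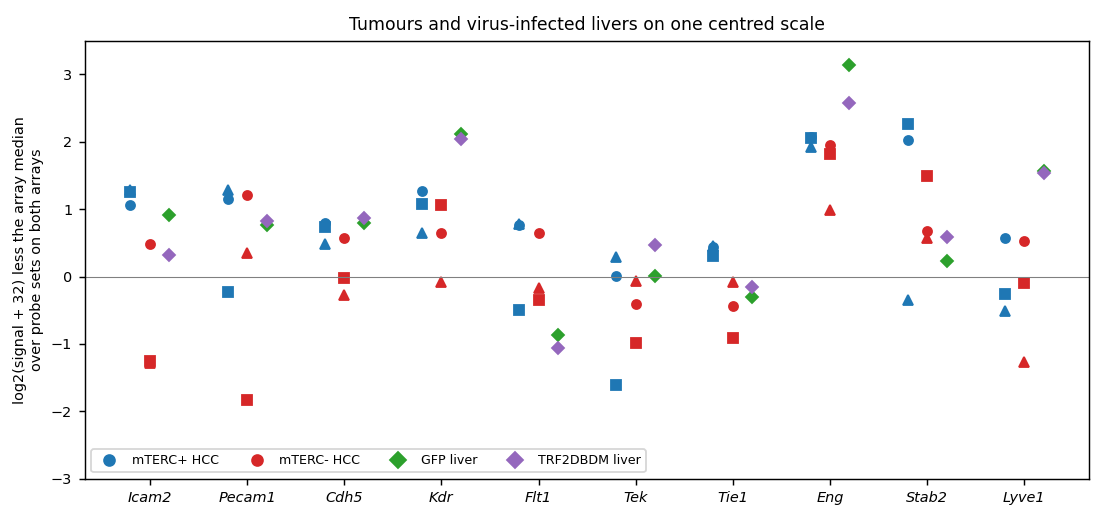
Levels of the 10 genes are log2 of the signal plus 32 less the array's median over probe sets on both array types, with circle, square and triangle for tumours 1, 2 and 3 of each group and diamonds for the 2 livers. Kdr, Eng and Lyve1 lie below both livers in all 6 tumours. Flt1, by a probe set chosen for its tumour level, lies above both in all 6.

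In the same view, 12 of 14 pan-endothelial genes kept had a lower mean in the tumours (median -0.42), and 6 of 10 sinusoidal genes did (median -0.22). Over all probe sets kept, 52.4% had a higher mean in the tumours, 17.7% were above both livers in every tumour and 14.5% were below both. Clec4g was below both livers in every tumour, at a log2 difference of -2.02, as were Ramp2 at -1.71, Thbd at -1.34 and S1pr1 at -1.22. By contrast all 13 macrophage markers kept had a higher mean in the tumours (median 2.22), with 7 of them above both livers in every tumour. Of 8 hepatocyte markers 5 were above both livers in every tumour (median 1.29), of 7 pan-leukocyte genes 4 (median 1.04), of 5 stellate and pericyte genes 1 (median 0.29), and of 3 lymphatic and 2 platelet genes 0 (medians 0.42 and 0.23). Their part in the endothelial values was not tested.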

How the data were processed

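Total RNA was measured on Affymetrix arrays of 6 tumours and 2 pooled livers, from 6 microg per array, per the labels' protocols. Per the submitters' processing notes, the authors computed signals with MAS5, whose version is not given in the sources used here. The deposited values are linear signal intensities, 1 for a probe set and array. The trimmed mean without the lowest and highest 2% was 150 on every array. Gene symbols came from the platform annotation, and all 10 members matched the RefSeq table.

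For the tumour groups, limma 3.58.1 (R 4.3.3) was fitted to log2 of the signal plus 32, over the 19498 probe sets with 1 symbol at or above the median level, with a variance trend and two-sided tests. The adenovirus arrays and the tumour-liver comparison had no test. Precision is limited by the number of arrays, and p-values measure the spread between 3 tumours a group. The members, the 14 lists and the tests were chosen with earlier results of these data known. All 10 members were named, and from each list up to 3 genes with the smallest p and 3 with the largest adenovirus ratio were eligible. Alternatives were other pseudocounts, scalings, filters, covariates, array weights and each tumour left out. The code was tested on simulated data.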

Additional observations from a re-analysis of the deposited data

How the results depend on the processing

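No member passed in limma under any alternative run. Over all probe sets the count that passed was 1, and it was 0 with a pseudocount of 1, median centring, the filter at percentile 75, no variance trend or the 18S block, 2 with a covariate for Y-linked genes and 3 with no level filter. With each tumour left out it ran from 0 (without mTERC+ tumours 1 or 3 or mTERC- tumour 2) to 6 (without mTERC- tumour 1), with 3 without mTERC+ tumour 2. The count of member probe sets without overlap, added after the data were seen, ran from 3 to 6. The number of genes lower in mTERC- tumours, also added then, was 7 to 10 of 10. With the 18S block, differences turned from below to above 0 for Pecam1 (0.44), Flt1 1451756_at (0.26), Lyve1 1429379_at (0.61) and Lyve1 1453128_at (0.57). Those of Cdh5 1422047_at (1.13), Flt1 1454037_a_at (0.38) and Eng 1432176_a_at (0.33) stayed above 0, and that of Tek was -0.002. With a pseudocount of 1, Icam2 was at -2.51 and Cdh5 1422047_at at 2.96 between the tumour groups, and Flt1 1451756_at at 2.46 between tumours and livers. Tek was at 0.23 with a pseudocount of 1 and 0.19 with array weights. Eng 1432176_a_at was at -0.033 with a pseudocount of 1, -0.054 with median centring and -0.16 with array weights. Stab2 was at 0.022 with the Y-linked covariate. With each tumour left out, Pecam1 ran from -1.39 to 0.031, Tek from -0.56 to 0.35, Eng 1432176_a_at from -0.27 to 0.45, Stab2 from -1.20 to 0.15 and Lyve1 1453128_at from -0.53 to 0.36. Of the tumour-liver differences, the median was 0.25, Cdh5 0.26, Icam2 0.35, Pecam1 0.23 and Tek 0.012 with the signals as deposited, all from below 0, a setting that leaves the median of all probe sets at 0.76. The cause of the other reversals was not tested. Of 360 member values under an alternative 332 kept their direction and side of the threshold, or moved by less than the spread between tumours or 1.5-fold, 22 reversed and 6 moved. No paired analysis was possible because the labels give the tumours no shared replicate numbers.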

Other observations

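Genes of vessel-supporting cells and of low oxygen were also measured in the tumours. Rgs5, a pericyte gene, had signals of 891, 1945 and 4792 in mTERC+ and 1893, 361 and 2703 in mTERC- tumours, and 30.5 and 65.8 in the GFP and TRF2DBDM livers. Every tumour was above both livers, with a log2 difference of 3.66 after centring. Of the 5 stellate and pericyte genes kept in that comparison it was the 1 that lay above both livers in every tumour, as 17.7% of all probe sets kept did. Acta2, smooth muscle actin, lay below both in every tumour (log2 difference -0.66), as 14.5% of all did. Pdgfrb, the receptor that recruits pericytes, had 117, 175 and 132 in mTERC+ and 87.4, 92.1 and 66.7 in mTERC- tumours. Cspg4, the pericyte proteoglycan NG2, had 136, 97.3 and 199.7 against 76.0, 60.1 and 78.5. Both had no overlap between the tumour groups and an adjusted p of 0.940 in limma, with log2 differences of -0.60 (SE 0.42) and -0.73 (SE 0.44).

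Of 8 tested hypoxia response genes 4 had a higher and 4 a lower mean in mTERC- tumours, with a median log2 difference of 0.00. Adm, which encodes the vessel-dilating peptide adrenomedullin, had signals of 140.2, 92.6 and 72.9 in mTERC+ and 56.0, 63.2 and 20.3 in mTERC- tumours with no overlap (adjusted p = 0.940 in limma). In the livers it had 21.2 with TRF2DBDM against 62.1 with GFP. Of 7 hypoxia genes kept in the tumour-liver comparison 4 had a higher and 3 a lower tumour mean. In every tumour 2 were above and 2 below both livers, against 17.7% and 14.5% of all probe sets kept. Ndrg1, a hypoxia-induced gene, was among those above (log2 difference 2.10) and Egln3, an oxygen-sensing enzyme, among those below (-1.43).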
